A study of Mus musculus with 6 samples.

Results

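The acute-phase genes described here are a group of 10 genes of innate defense, namely Lcn2, Lbp, C3, Saa3, Hp, Cp, Cd14, Tlr4, Tlr2 and Ptx3. On the arrays they were read by probe sets, the sets of short probes for 1 transcript, and all that the array annotation assigns to 1 of these symbols alone were taken. These were 16 of 22626 probe sets, for 9 of the 10 genes. C3 had no probe set under its symbol in the annotation used here, so no level of C3 is given. The samples were 3 arrays of E2-treated cells and 3 arrays of control cells. E2-treated cells received 100 nM estradiol (E2) for 4 days, and control cells received 0.05% ethanol, the vehicle. Both were urogenital sinus (UGS) mesenchymal cells of male CD-1 mouse fetuses of gestation day 17, at first passage. All had 690 pM DHT, a potent androgen, in medium whose serum had been stripped of steroids with charcoal, and spent 3 days without estrogen before the treatment. Each sample was read on 1 Affymetrix mouse array.

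The acute-phase response is the rapid change in secreted defense proteins that follows infection or injury, driven by interleukin-6, interleukin-1 and tumor necrosis factor through C/EBP, STAT3 and NF-κB transcription factors. It is best known from the liver, but stromal cells also make several of these proteins. Lbp carries bacterial lipopolysaccharide to Cd14, which passes it to the receptor Tlr4, while Tlr2 senses bacterial lipoproteins. Lcn2 withholds iron from bacteria by binding their siderophores, and Saa3 and Ptx3 are produced outside the liver on inflammatory stimuli.

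The genes were grouped with results of this same comparison known. The group was chosen by the E2 against control differences of Lcn2 and Lbp, so the differences of all members are given as descriptions. Signals are in fluorescence units after each array was scaled to a common median of 17.2 units. Differences are E2 minus control on the log2 scale, with the standard error (SE) from limma. Arrays of 1 group correlated at 0.934 to 0.960 and arrays of different groups at 0.922 to 0.950. Of 11 mesenchymal marker genes, 9 were above 100 units on every array, and the lowest value was 67.9 units, for Pdgfra. An 18S ribosomal RNA control probe set read 288 units on E2 replicate 2 and 281 units on control replicate 3, while the other 4 arrays read 22.8 to 44.7 units. Nothing in the sources used here says that the 3 samples of a group came from separate cell preparations, so the errors may measure technical spread.

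Promoter sequences of the group are shown because 5 of the 6 members with an entry in the RefSeq table (build GRCm38.p6) share a motif in the 250 bases before the start site. That motif, TTGCNNAA on either strand, has the letters of a C/EBP site. It was found in Lcn2, C3, Saa3, Cp and Ptx3 but not in Tlr2, in 5 of 7 windows in all, and 9.57% of 32536 windows of the same length held it. The matches were TTGCTCAA at bases -216 to -209 of Lcn2, TTGCGAAA at -45 to -38 of C3 and TTATGCAA at -99 to -92 of Saa3, counted back from the start. Cp had TTTTGCAA at -70 to -63 of its second start and Ptx3 had TTGTGCAA at -57 to -50. The windows of 3 measured members follow, 5′ to 3′ on the gene's strand, with the C/EBP-like match in capitals.
Lcn2 (chr2:32387740-32387989, minus strand): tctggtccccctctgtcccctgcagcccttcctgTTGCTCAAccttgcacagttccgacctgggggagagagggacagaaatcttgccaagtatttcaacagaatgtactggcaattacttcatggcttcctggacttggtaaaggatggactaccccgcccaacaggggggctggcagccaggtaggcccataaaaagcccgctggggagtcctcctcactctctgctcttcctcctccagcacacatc
Saa3 (chr7:46715677-46715926, minus strand): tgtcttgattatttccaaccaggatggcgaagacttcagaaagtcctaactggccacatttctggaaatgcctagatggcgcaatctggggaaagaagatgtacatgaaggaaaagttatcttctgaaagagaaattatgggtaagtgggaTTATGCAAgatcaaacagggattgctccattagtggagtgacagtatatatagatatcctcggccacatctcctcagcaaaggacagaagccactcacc
Ptx3 (chr3:66219637-66219886, plus strand): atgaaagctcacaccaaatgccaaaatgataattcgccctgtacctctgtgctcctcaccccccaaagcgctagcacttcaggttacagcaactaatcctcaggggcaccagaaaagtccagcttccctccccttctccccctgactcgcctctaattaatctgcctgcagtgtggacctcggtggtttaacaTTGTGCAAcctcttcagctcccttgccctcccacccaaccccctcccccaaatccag
The NF-κB consensus was in 1 of the 7 windows, that of Tlr2, as GGGAATTCCC at -172 to -163 and overlapping itself by a shift of 1 base, and in 7.28% of all windows. A related NF-κB-like motif, GGGA and TCC 3 bases apart, was in 0 of 7 and in 3.87%. A STAT-like motif, TTCNNNGAA, was in 0 of 7 and in 7.04%, and the palindromic estrogen response element, GGTCA and TGACC 3 bases apart, was in 0 of 7 and in 0.0645%. The single AGGTCA of that element was in 2 of 7, those of C3 and Tlr2, and in 14% of all windows. An AP-1-like motif, TGANTCA, was in 1 of 7, the first start of Cp, and in 6.73%, and a TATA box, TATAAA, was in 1 of 7, the second start of Cp, and in 12.3%. All were searched on both strands. None of the 5 C/EBP-like matches overlapped a match of another motif searched. These letters describe the windows only, and binding was not measured.

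**Figure D1:**
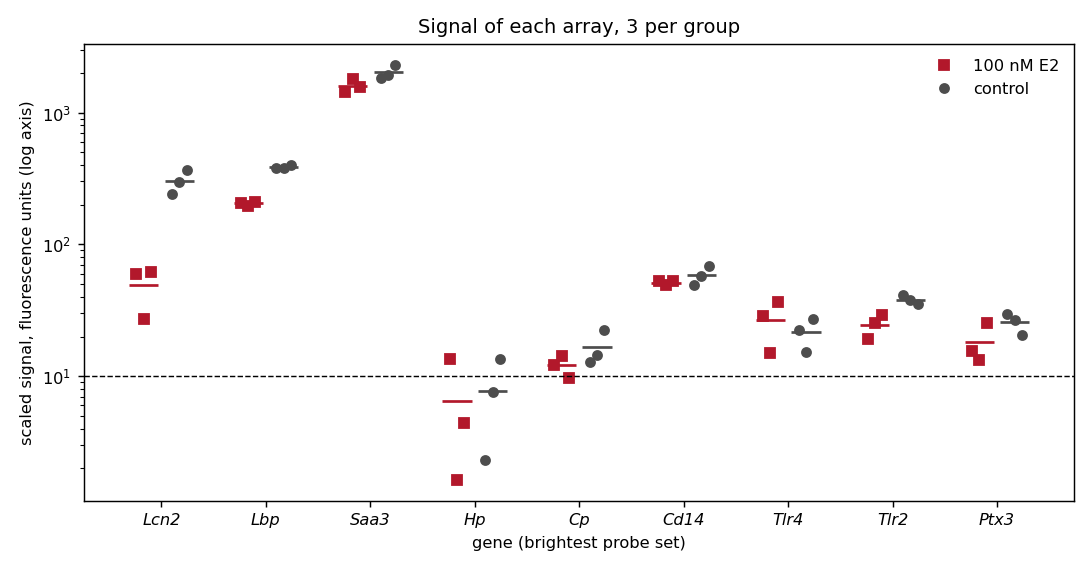
Scaled signal in fluorescence units (log axis) of 9 genes by their brightest probe set, with 1 point per array, red squares for the 3 E2 arrays and grey circles for the 3 control arrays, and a short line at each group mean. The dashed line marks 10 units. The E2 squares of Lcn2 lie at 27.3 to 61.4 units, below its control circles at 241 to 367 units, and Hp lies around the dashed line in both groups.

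Lcn2, the siderophore-binding lipocalin, had 59.3, 27.3 and 61.4 units in E2 replicates 1 to 3, against 241, 297 and 367 units in control replicates 1 to 3. The groups were far apart, and within E2 the array of replicate 2 was lower than the other two. The mean was 49.3 ± 19.1 units in E2 and 302 ± 62.7 units in control (SD, n = 3 each), so E2 cells had 16.4% of the control signal. The log2 difference was -2.68 (SE 0.26, 95% interval -3.24 to -2.12), a 6.42-fold lower geometric mean. Among 2549 genes with a mean of 100 units or more in a group, this was the lowest difference. The lowest E2 value and the highest control value were those of the arrays with high 18S signal, and without both arrays the difference was -2.15.

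Lbp, the lipopolysaccharide-binding protein, had 208, 195 and 211 units in E2 replicates 1 to 3, against 382, 380 and 401 units in control replicates 1 to 3. The replicates of each group were close together and the groups did not overlap. The mean was 204 ± 8.52 units in E2 and 388 ± 11.8 units in control (SD, n = 3 each), or 52.7% of control. Its log2 difference of -0.92 (SE 0.12, 95% interval -1.17 to -0.68) was the fifth lowest of the same 2549 genes. Lcn2 and Lbp differed in how far their replicates spread. The within-group SD of log2 signal was 0.51 for Lcn2 and 0.05 for Lbp, against a median of 0.15 for genes with a mean of 100 units or more. Of those genes, 99.3% had a smaller SD than Lcn2 and 1.65% had a smaller SD than Lbp. The E2 arrays of Lcn2 were themselves under 100 units, with a log2 range of 1.17 against 0.60 in control. Low signals spread more, with a median SD of 0.49 for genes with a mean under 20 units. Over the 6 arrays the log2 signals of Lcn2 and Lbp correlated at 0.976, a value set mostly by the gap between the groups.

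The remaining secreted members were Saa3, Ptx3, Cp and Hp. Saa3, an inflammation-induced serum amyloid A, had 1439, 1810 and 1558 units in E2 replicates 1 to 3, against 1837, 1936 and 2304 units in control replicates 1 to 3. The highest E2 array lay just below the lowest control array. The mean was 1602 ± 190 units in E2 and 2026 ± 246 units in control (SD, n = 3 each), a log2 difference of -0.34 (SE 0.12, 95% interval -0.59 to -0.08). Ptx3, the long pentraxin that marks microbes for uptake, had 15.6, 13.3 and 25.2 units in E2, against 29.9, 26.9 and 20.5 units in control. Its groups overlapped through E2 replicate 3 and control replicate 3. The log2 difference of Ptx3 was -0.55 (SE 0.30, 95% interval -1.19 to 0.09).

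Cp encodes ceruloplasmin, the copper-carrying ferroxidase, and was read by 7 probe sets. Of these, 3 passed the filter of a mean of 10 units in E2 or in control, with 7.36 to 22.5 units on the 6 arrays. The brightest had 12.2, 14.3 and 9.63 units in E2, against 12.8, 14.6 and 22.5 units in control, with overlapping groups. The differences of the 3 probe sets were -0.44 (SE 0.37), -0.35 (SE 0.42) and -0.23 (SE 0.42). The other 4 probe sets of Cp ran from 0.261 to 10.5 units and were not tested. In one of those, the values were 0.990, 1.73 and 1.22 units in E2, against 7.71, 7.47 and 8.84 units in control, below the filter in both groups. Hp encodes haptoglobin, which captures free hemoglobin. It had 13.5, 1.63 and 4.44 units in E2, against 2.33, 7.55 and 13.4 units in control, and was not tested. The Hp groups overlapped.

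The receptor members showed smaller differences than Lcn2 and Lbp. Tlr2 had 19.1, 25.4 and 29.1 units in E2 replicates 1 to 3, against 41.2, 37.8 and 35.2 units in control replicates 1 to 3. The groups did not overlap. The mean was 24.5 ± 5.05 units in E2 and 38.1 ± 3.0 units in control (SD, n = 3 each), a log2 difference of -0.65 (SE 0.23, 95% interval -1.14 to -0.17). Cd14, the coreceptor that receives lipopolysaccharide from Lbp, had 52.4, 48.9 and 52.4 units in E2, against 49.1, 57.7 and 68.1 units in control. The E2 arrays were nearly equal and lay at the low end of the control range. Cd14 had a log2 difference of -0.17 (SE 0.18, 95% interval -0.56 to 0.21). Tlr4 had 28.4, 15.0 and 36.5 units in E2, against 22.6, 15.2 and 27.3 units in control by its brighter probe set. The groups overlapped, with a difference of 0.24 (SE 0.34, 95% interval -0.48 to 0.97). The dimmer probe set of Tlr4 had 13.5, 16.7 and 7.53 units in E2, against 13.7, 5.95 and 19.3 units in control, a difference of 0.04 (SE 0.50). Tlr4 was at -0.03 without E2 replicate 3 and at 0.80 without both arrays of high 18S signal.

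**Figure D2:**
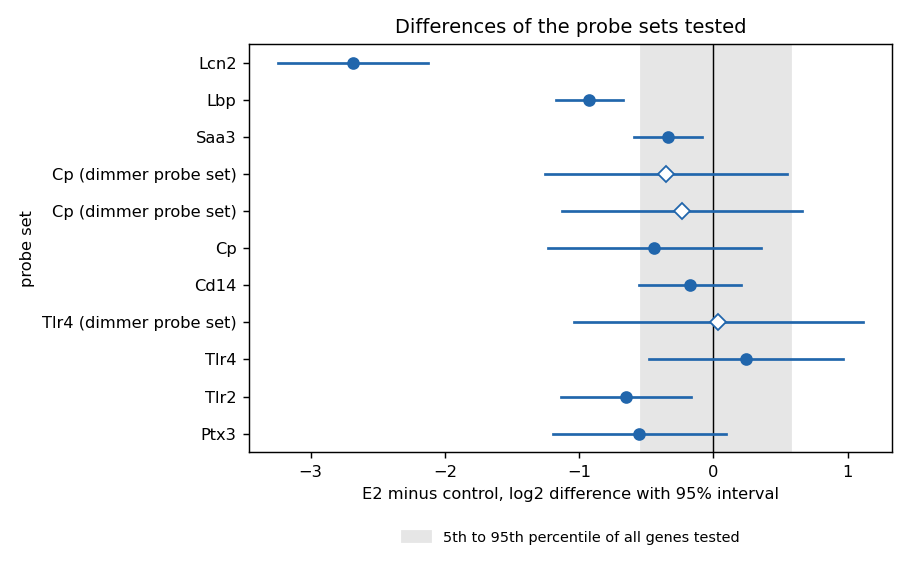
Log2 difference, E2 minus control, with its 95% interval from limma for the 11 probe sets tested, filled circles for the brightest probe set of a gene and open diamonds for dimmer ones. The grey band spans the 5th to 95th percentile of all genes tested, -0.54 to 0.58. The intervals of Lcn2 and Lbp lie outside the band, and those of Cd14, Tlr4, Cp and Ptx3 cross 0.

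Of the 10 genes, 8 were tested by their brightest probe set and 7 of them had a difference below 0, all but Tlr4. The median difference of the 8 was -0.50, which includes Lcn2 and Lbp. For the other 6 genes it was -0.39, with 5 of 6 below 0, while all 8246 genes tested had a median of -0.03 and 56.1% of them were below 0. By limma, 2 of the 8 were lower at an adjusted p under 0.05, Lcn2 and Lbp, and 0 were higher, against 0.34% of all genes lower, 0.57% higher and 0.91% in either direction. By probe set, 0.253% were lower and 0.492% higher. Because Lcn2 and Lbp were picked for these falls, the count describes the choice, and both lost the call without a variance trend and without moderation (adjusted p up to 0.31 over these fits), Lbp also with the values as deposited. Of the other 6 genes, limma called 0 and 2 were lower at an unadjusted p under 0.05, Saa3 and Tlr2, and 0 were higher, against 4.74% of all genes lower and 3.59% higher. Groups that did not overlap, with E2 below control, were found for Lcn2, Lbp, Saa3 and Tlr2, that is for 2 of the other 6 genes, against 8.55% of all genes tested. With E2 above control they were found for 0 of the 8, against 5.98% of all genes. The order of the arrays was partly shared. Among the 8 genes, control replicate 3 was the highest control array for 6, E2 replicate 3 the highest E2 array for 6, and E2 replicate 2 the lowest E2 array for 5.

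**Figure D3:**
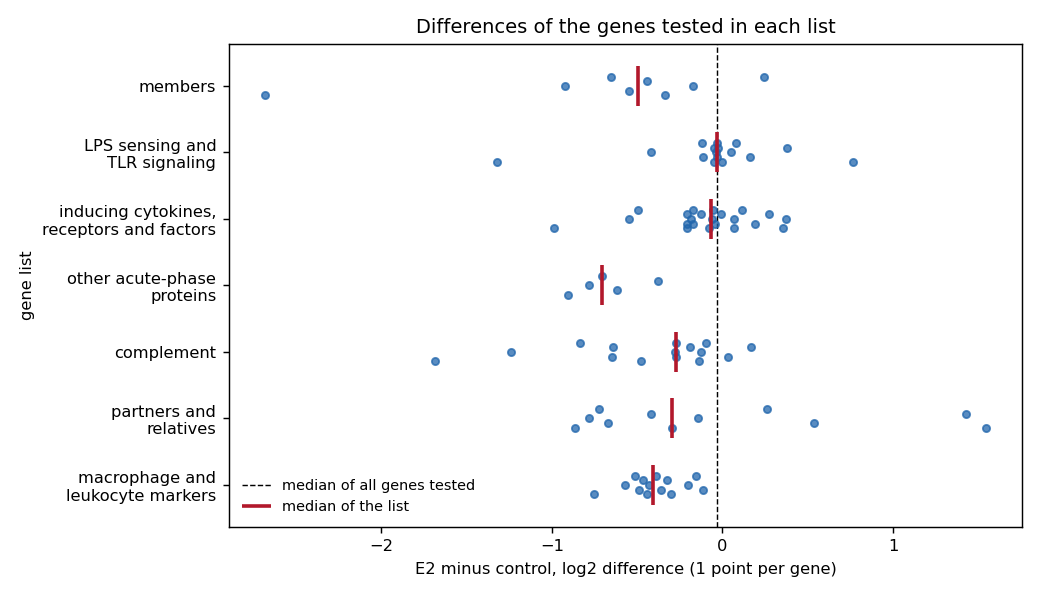
Log2 difference, E2 minus control, of the genes tested in each list, 1 point per gene, with a red line at the median of the list and a dashed line at -0.03, the median of all genes tested. The members have a median of -0.50, or -0.39 without Lcn2 and Lbp, which were picked for their falls, and the list of lipopolysaccharide sensing and Toll-like receptor signaling one of -0.03.

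Around the receptors, no gene of the pathway passed the test. Of 28 other genes of lipopolysaccharide sensing and Toll-like receptor signaling, 16 were tested and limma called 0, with 0 also at an unadjusted p under 0.05. Myd88, the adaptor of most Toll-like receptors, averaged 63.0 units in E2 and 68.4 units in control, with a log2 difference of -0.11. Ly96, the MD-2 subunit that binds lipopolysaccharide beside Tlr4, averaged 15.0 units in E2 and 13.0 units in control. The median difference of the 16 was -0.03, the value of all genes. The smallest p value was that of Ly86, a partner of Cd180, at -1.32 (SE 0.68, adjusted p = 0.673 from limma). Next came the ubiquitin ligase Traf6 at 0.77 (SE 0.54, adjusted p = 0.779 from limma). Tab1, an activator of the kinase Tak1, was at -0.42 (SE 0.36, adjusted p = 0.834 from limma). Each of these 3 averaged under 20 units in both groups.

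Of 28 genes that act in acute-phase induction, among them cytokines, receptors, transcription factors and inhibitors, 22 were tested and limma called 0. At an unadjusted p under 0.05, 2 were lower and 0 higher, against 4.74% and 3.59% of all genes. The cytokine genes Il6, Il1a, Il1b and Tnf averaged under 10 units in both groups. The 2 lower genes were the NF-κB subunit Relb and Cebpd, a C/EBP factor that rises in inflammation. Relb had 42.2, 32.8 and 43.8 units in E2, against 58.7, 56.8 and 56.9 units in control, or -0.55 on the log2 scale (SE 0.18, adjusted p = 0.364 from limma). Cebpd had 90.2, 72.1 and 112 units in E2, against 116, 146 and 121 units in control, a difference of -0.50 (SE 0.18, adjusted p = 0.422 from limma). In both genes all E2 arrays were below all control arrays. Cebpa, another C/EBP factor, was at -0.99 (SE 0.52, adjusted p = 0.682 from limma), and Cebpb averaged 216 units in E2 and 174 units in control (log2 difference 0.27). Stat3 averaged 213 units in E2 and 243 units in control. The median of the list was -0.07.

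Among 28 other acute-phase proteins, most were at background. Of the 24 on the array, 19 averaged under 10 units in both groups, among them Crp, Apcs, Orm1, Saa1 and Alb. Of the 5 tested, 2 fell, 0 rose and 3 did not pass, against 0.34% of all genes called lower and 0.57% higher. The median was -0.70. A2m, a broad protease inhibitor of plasma, had 59.2, 66.8 and 81.0 units in E2, against 106, 121 and 127 units in control. The E2 signal was 58.5% of control, at -0.78 on the log2 scale (SE 0.16, adjusted p = 0.0424 from limma). Mt1, an intracellular zinc-binding metallothionein and not a plasma protein, had 952, 756 and 857 units in E2, against 1349, 1135 and 1459 units in control. Its difference was -0.62 (SE 0.12, adjusted p = 0.0307 from limma), and Mt2 was at -0.70 (SE 0.16, adjusted p = 0.0630 from limma). Serpina3n, a serine protease inhibitor, was at -0.38 (SE 0.15, adjusted p = 0.527 from limma), and Hpx, the heme carrier hemopexin, at -0.91 (SE 0.58, adjusted p = 0.748 from limma). For 4 of the 5 genes, all but Hpx, the groups did not overlap, with E2 below control, against 8.55% of all genes tested. A2m was not called without any 1 of E2 replicates 1 and 2 and control replicates 1, 2 and 3 (adjusted p up to 0.239), and Mt1 was not called without any 1 of E2 replicates 1, 2 and 3 and control replicates 1 and 3 (adjusted p up to 0.143). Each was called in 7 of 17 other settings, with adjusted p values up to 1, reached with the values as deposited.

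Of 31 complement components and regulators, 15 were tested, 13 had a difference below 0, and limma called 0, with 6 lower at an unadjusted p under 0.05. Over all genes tested, 56.1% were below 0 and 4.74% were lower at that p. The median was -0.27. C1qb, a chain of the first complement component, had 24.7, 20.7 and 14.9 units in E2, against 31.1, 58.9 and 55.1 units in control. All E2 arrays were below all control arrays, and the difference was -1.24 (SE 0.28, adjusted p = 0.0630 from limma). C1qa was at -0.84 (SE 0.28, adjusted p = 0.375 from limma) and C2, which forms the C3 convertase with C4, at -0.64 (SE 0.23, adjusted p = 0.445 from limma). C1qa and C1qb are chiefly made by macrophages. C1s1 and Serping1, a protease of the first component and its inhibitor, averaged 86.7 and 310 units in E2, against 123 and 375 units in control.

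Of 22 binding partners and relatives of the 10 genes, 11 were tested and none passed by limma (0 calls). At an unadjusted p under 0.05, 2 were higher and 1 was lower, against 3.59% and 4.74% of all genes. Pltp, a lipid transfer protein of the same family as Lbp, had 55.9, 39.8 and 55.3 units in E2, against 85.9, 72.5 and 89.2 units in control. The groups were apart and Pltp was at -0.72 (SE 0.18, adjusted p = 0.122 from limma). Heph, a ferroxidase related to Cp, had 28.4, 21.8 and 35.9 units in E2, against 4.78, 15.4 and 12.1 units in control, a difference of 1.55 (SE 0.42, adjusted p = 0.159 from limma). Heph and Cp had differences of opposite sign, and neither passed. Rbp4, the retinol carrier and a lipocalin like Lcn2, had 15.96, 16.01 and 24.4 units in E2, against 5.49, 6.46 and 9.03 units in control (log2 difference 1.43, SE 0.43, adjusted p = 0.255 from limma). Slc22a17, described as a cell-surface receptor for Lcn2, averaged 40.7 units in E2 and 29.2 units in control.

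Other cell types that use these genes were read through their markers. Macrophages express Cd14, Tlr2 and Lcn2. All 14 macrophage and leukocyte markers were tested and had differences below 0, with a median of -0.41, limma called 0, and 2 were lower at an unadjusted p under 0.05. Among all genes tested, 56.1% were below 0 and 4.74% were lower at that p. The summed levels of the groups overlapped. They were 697, 686.1 and 782 units in E2 replicates 1 to 3, against 720, 934 and 1176 units in control replicates 1 to 3. In each group the arrays stood in the same order for this sum as for Lcn2. That order was not particular to these markers. The sums of the lipopolysaccharide sensing and Toll-like receptor list and of the partners and relatives had it too. The marker Lyz2 alone averaged 371 units in E2 and 470 units in control, of mean sums of 722 and 944 units. The sum in E2 was 76.5% of that in control, and single markers ran from 59.5% (Ctss) to 85.0% (Cd52). Outside this list, the complement chains C1qb, C1qa and C1qc were at 41.6%, 56.5% and 67.0%. Among the members, Lcn2 was at 16.4%, Lbp at 52.7%, Tlr2 at 64.5%, Saa3 at 79.1% and Cd14 at 87.9%. The smallest p values in the list were those of the lysosomal protease Ctss at -0.75 (adjusted p = 0.239 from limma), the signaling adaptor Tyrobp at -0.49 (adjusted p = 0.575 from limma) and the tetraspanin Cd53 at -0.44 (adjusted p = 0.644 from limma). The part of these cells in the falls was not tested, and in bulk samples fewer cells of a type and less RNA per cell cannot be told apart.

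Neutrophils store Lcn2 in their granules. Of 10 neutrophil markers on the array, 8 averaged under 10 units in both groups, including S100a8, S100a9, Ltf and Mpo, and the other two, Ngp and Camp, did not pass, with -1.40 (adjusted p = 0.718 from limma) and -0.95 (adjusted p = 0.691 from limma). Their summed level was 41.5 to 44.7 units in E2 and 49.7 to 66.1 units in control. Epithelial cells also express Lcn2. The 10 epithelial markers summed to 142 to 155 units in E2 and 56.4 to 93.0 units in control. Krt18 alone averaged 72.0 units in E2 and 39.1 units in control. The part of neutrophils or epithelial cells in the level of Lcn2 was not tested. Of the 4 epithelial markers tested, all keratins, 1 rose, Krt18, with 83.5, 60.4 and 72.1 units in E2, against 42.3, 38.2 and 36.8 units in control (log2 difference 0.87, SE 0.18, adjusted p = 0.0416 from limma). Krt18 was not called without E2 replicates 1 or 3 or any 1 control replicate (adjusted p up to 0.227), and was called in 6 of 16 other settings (adjusted p up to 1). Krt19, Krt8 and Krt14 were at 1.38, 1.24 and 0.96 (adjusted p of 0.504, 0.691 and 0.755 from limma). Epcam, Cdh1, Cldn4, Cldn7, Trp63 and Krt5 averaged under 10 units in both groups. Of the 11 mesenchymal markers, 1 rose, the calcium-binding S100a4, with 227, 167 and 208 units in E2, against 102, 79.0 and 119 units in control (log2 difference 1.01, SE 0.17, adjusted p = 0.0105 from limma). It was called in 12 of 17 other settings, and not without E2 replicate 1 (adjusted p = 0.0818) or control replicate 2 (adjusted p = 0.0609), without trend (0.229), without moderation (0.441) or with the values as deposited (0.446). Across all genes tested, 0.57% were called higher. Dcn, Lum and Fn1, matrix genes of fibroblasts, were at -0.18, -0.17 and -0.14 and did not pass. The summed level of the list was 16469 to 17286 units in E2 and 16949 to 19090 units in control. For endothelial markers it was 97.2 to 108 units in E2 and 79.6 to 104 units in control, and for adipocyte markers 41.2 to 73.0 units in E2 and 43.8 to 47.0 units in control.

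**Figure D4:**
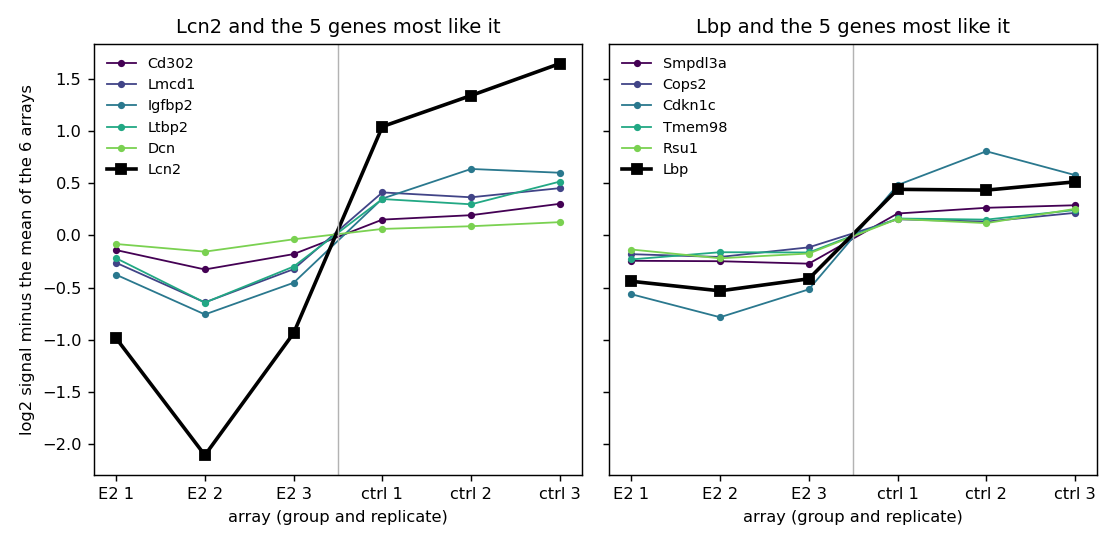
Log2 signal minus the mean of the 6 arrays for Lcn2 (left panel) and Lbp (right panel), in black squares, and for the 5 genes whose profiles were most like each, in colored circles, with lines joining the points of a gene. The 3 E2 arrays stand left of the grey line and the 3 control arrays right of it. The Lcn2 profile is lowest on E2 replicate 2, as are those of the 5 genes beside it.

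The genes most like Lcn2 and Lbp over the 6 arrays were sought among 2423 others with a mean of at least 100 units. For Lcn2 these were the C-type lectin receptor Cd302, the LIM domain protein Lmcd1, the insulin-like growth factor binding protein Igfbp2, the matrix protein Ltbp2 and the proteoglycan decorin, Dcn, with Pearson correlations of 0.994, 0.993, 0.992, 0.991 and 0.989. Their deviations from the group means correlated with those of Lcn2 at 0.904 to 0.948. The genes were picked on the same 6 arrays, so high values here were partly built in. The size of the differences varied widely. The log2 difference was -1.06 for Igfbp2, -0.82 for Lmcd1, -0.77 for Ltbp2, -0.43 for Cd302 and -0.18 for Dcn, against -2.68 for Lcn2. For Lbp the nearest were the phosphodiesterase Smpdl3a, the signalosome subunit Cops2, the cyclin-dependent kinase inhibitor Cdkn1c, the membrane protein Tmem98 and the focal adhesion protein Rsu1, at 0.993, 0.990, 0.983, 0.982 and 0.981. Their deviations correlated with those of Lbp at 0.216 to 0.894. With 6 arrays in 2 groups, these values rest on the group gap and on shared array effects.

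**Figure D5:**
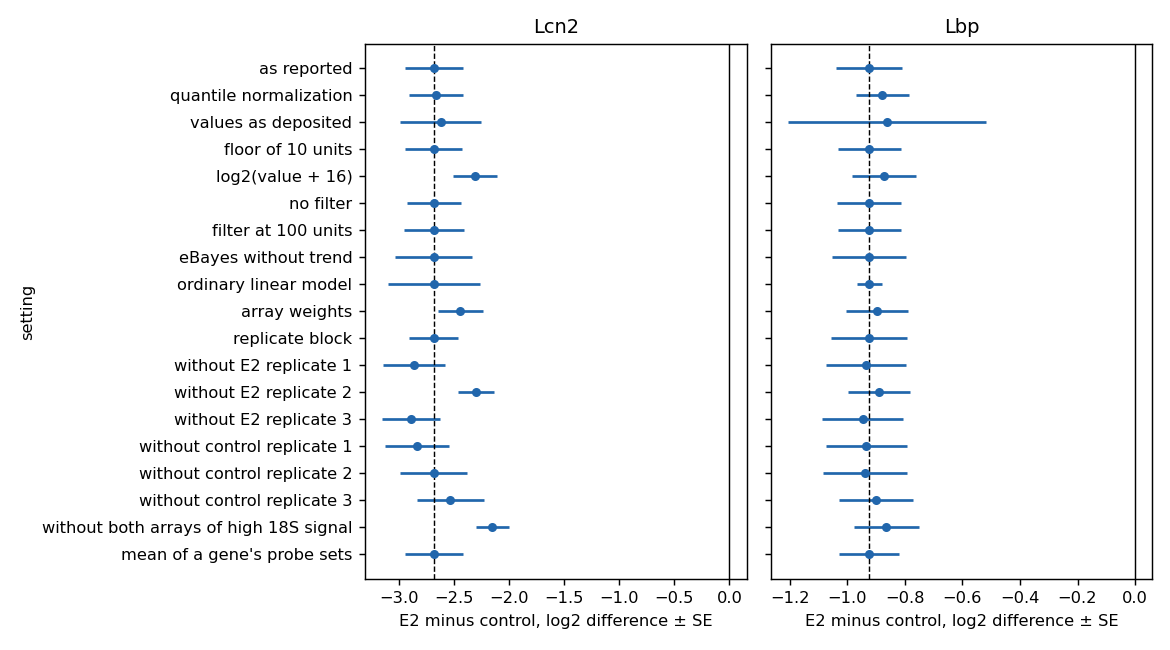
Log2 difference, E2 minus control, of Lcn2 (left panel) and Lbp (right panel) with the SE of each fit, as reported and under each other setting, the dashed line marking the value as reported. Lcn2 runs from -2.88 to -2.15 and Lbp from -0.95 to -0.86, all on the same side of 0.

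Lcn2 and Lbp kept their direction under each of 18 other settings, at -2.88 to -2.15 for Lcn2 and -0.95 to -0.86 for Lbp. Both were picked for their falls on these same arrays. Their E2 arrays all lay below their control arrays, so leaving arrays out could not reverse the direction. Lcn2 was called in 16 of the 18 (adjusted p up to 0.31 from limma) and Lbp in 15 (adjusted p up to 1 from limma). Saa3 was between -0.43 and -0.24 and Tlr2 between -0.79 and -0.42 over their alternatives, and neither was called in any. The SE of Lbp was 0.34 with the values as deposited, where array medians ran from 13.7 to 21.8 units, against 0.12 after scaling.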

How the data were processed

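Total RNA of 3 E2-treated and 3 control samples was hybridized to Affymetrix mouse arrays. The authors used Affymetrix software to turn scans into tables, and deposited linear intensity values, 1 per probe set and array. For software versions, signal algorithm, scaling and genome build, the sources used here give nothing. Deposited array medians ran from 13.7 to 21.8 units, a ratio of 1.59, so each array was scaled to a common median before log2 transformation, after 64 control probe sets were left out. Values near background are uncertain, and the number of arrays limits the precision.

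Of 22626 probe sets, the 14223 whose deposited values averaged 10 units or more in E2 or in control were kept. The fit used lmFit, then eBayes with trend, of limma 3.58.1 (R 4.3.3) for E2 minus control. P-values were two-sided and adjusted by Benjamini-Hochberg over all probe sets kept, at a threshold of 0.05. Symbols came from the platform annotation, updated by gene identifier: 20380 probe sets had 1 symbol, 691 had several, and 1555 were not listed. Each gene stands by the probe set of highest mean log2 signal, called its brightest, which gave 8246 genes tested.

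The members and the gene lists were chosen with earlier results of these data known. Named are every member, in each list the genes past the threshold and up to 3 more with the smallest p, and for Lcn2 and Lbp the 5 genes with the highest Pearson correlation over 6 arrays. Genes named beside these, such as Myd88, Ly96, Cebpb, Stat3 and Slc22a17, were chosen after their values were seen. Promoter windows came from RefSeq, for 6 of 10 members, with any window on chromosome 18 left out. The NF-κB consensus was added to the motifs after the windows were seen. The alternatives were quantile normalization, no scaling, values floored at 10 units, a pseudocount of 16, all probe sets kept, a filter at 100 units, no variance trend, no moderation, array weights, a replicate block, each array left out, both arrays of high 18S signal left out, and averaging over the probe sets of each gene. The fit was tested on simulated data.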

Additional observations from a re-analysis of the deposited data

How the results depend on the processing

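Of the 8 genes tested, 2 were called lower in the reported fit, 1 with the values as deposited, where Lbp was at -0.86, and 0 both without a variance trend (adjusted p of 0.0739 for Lcn2 and 0.0893 for Lbp) and without moderation (0.31 and 0.0629). When the pair of arrays with high 18S signal was left out, Lcn2 was at -2.15 and Lbp at -0.86. With each array left out, the count stayed at 2 lower and 0 higher, Lcn2 ranged from -2.88 to -2.30 and Lbp from -0.95 to -0.89. Over all probe sets, 70 were called higher and 36 lower. The counts were 39 and 7 as deposited, 15 and 1 without trend, 3 and 0 without moderation, and 112 and 70 with array weights. They were 41 higher with the filter at 100 units, and from 37 to 75 higher and 11 to 31 lower with each array left out. The share of higher calls was 66.0% after scaling and 84.8% as deposited. With the replicate block, 61 were higher and 27 lower, Lcn2 was called at an adjusted p of 4.28e-05 and Lbp at 0.00408, and A2m (0.0557) and Krt18 (0.0717) were not called. Same-numbered samples did not deviate together (correlations of 0.01, -0.05 and -0.06), so the numbers were not taken as pairs. The causes of these changes were not tested.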
